A study of Stylophora pistillata with 18 samples.

Results

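Intronless coding models are genes whose protein-coding sequence lies in a single uninterrupted stretch of the genome. In the annotation deposited with a study of the reef-building coral Stylophora pistillata, 4733 of 24830 models from the predictor Gnomon (19.1%) had exactly 1 coding (CDS) feature, none of them on the mitochondrial scaffold. Of these, 2838 had 10 or more counts in at least 3 of the 18 libraries and form the set described here, out of 29419 models in all. Another 1895 fell below that count rule, 324 of them with no count in any library. The rule uses structure and a minimum count and no test of treatment, although a model whose counts reach that minimum in 1 treatment alone entered through that treatment.

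The wild-type material came from 2 adult colonies. Specimens were kept for 18 h in seawater alone (control) or with a cyclic dinucleotide added at 250 µM, either 3'3'-cUA or 2'3'-cGAMP, and RNA enriched with oligo(dT) beads was sequenced. There were 6 libraries per treatment, 3 from each colony, and control 1A stands for specimen A of colony 1. The labels do not say how independent the specimens of a colony were, so a p-value reflects only how these specimens varied, and 2 colonies limit what can be said of the species. In colony RNA, fewer cells of a type and less RNA per cell cannot be told apart. The models carry no product names, so the tissue could not be checked against markers.

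In most animal genes the coding sequence is split by introns, which are cut out of the transcript before translation. Intronless genes can arise when a spliced messenger RNA is copied back into the genome, or by duplication of a gene that already lacks introns, and in animals they include replication-dependent histones and many G protein-coupled receptors. Such duplicates often lie side by side. Cyclic dinucleotides are second messengers made by enzymes such as the cGAS-like receptors; vertebrate STING is a receptor for 2'3'-cGAMP. No roles are stated here for single members, except for Cglr2, whose symbol names a cGAS-like receptor.

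The members were spread over 813 scaffolds, 1417 on the plus and 1421 on the minus strand. Their median coding length was 1005 bases (quartiles 774 and 1368, range 69 to 11451), against 1197 (quartiles 744 and 1905) for 16529 Gnomon models with 2 to 29 CDS features that met the same count rule, called spliced models below. The Gnomon models are annotated by coding features alone, without untranslated regions, so lengths are coding lengths. In 2760 of the 2838 members the coding length was a multiple of 3, and in the rest it was not a whole number of codons. Of the members, 163 (5.74%) lay wholly inside the span of another model, against 1.66% of the spliced models, while only 13 overlapped another model's coding bases. A protein accession matched 1977 members to a symbol in RefSeq's gene table for another assembly, jaStyPist1.2, 702 with the same version and 1275 with another version of the accession.

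Members also lay next to each other. With all models ordered along the scaffolds, 923 members (32.5%) had another member as an immediate neighbour, in 295 pairs, 74 runs of 3, 18 runs of 4, 4 runs of 5, 2 runs of 6 and 1 run of 7. As members are 2838 of the 29419 models, some would be neighbours in any order, and how many was not worked out. Adjacent members may be related copies. How multiply matching reads were handled is not stated, so counts of such copies are uncertain.

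The first question was how strongly intronless models are expressed in an untreated colony. In the 6 control libraries the median member stood at 2.31 CPM (counts scaled to library size) per kb of coding length, against 8.81 for the spliced models. This is a log2 ratio of -1.93 ± 0.11 (SD of the ratio over 6 control libraries). The ratio lay between -1.97 and -1.91 without any single control library, and was -1.31 against spliced models of 2 to 5 CDS features. Below 1 CPM per kb were 32.5% of members and 17.3% of spliced models, and above 100 CPM per kb 3.31% and 8.65%. No test was made of this difference between sets.

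**Figure D1:**
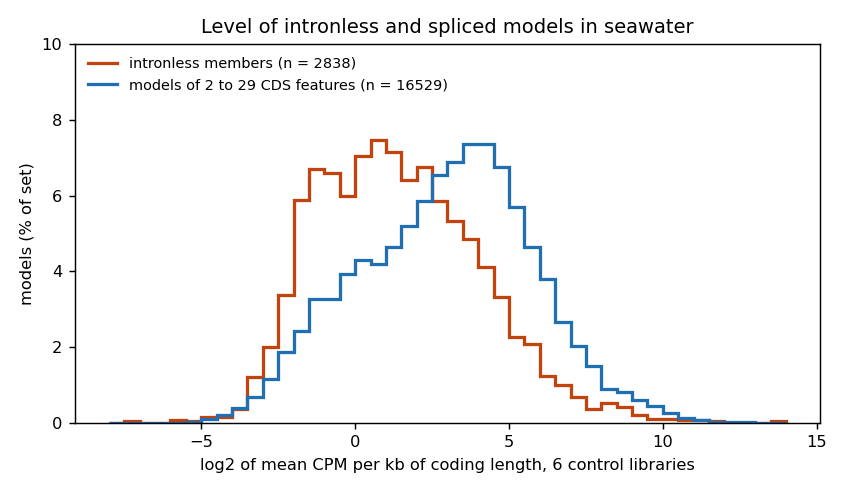
Distribution of the level in seawater, as log2 of the mean CPM per kb of coding length over the 6 control libraries (x axis), for the 2838 intronless members and the 16529 spliced models (y axis, % of each set per bin). The intronless distribution is centred lower, with medians of 2.31 and 8.81 CPM per kb.

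A length-scaled level depends on whether reads were counted over coding segments or over the whole span with introns, which is not stated. Members nested inside a host on the same strand, without shared coding bases, bear on this. Of 108 such pairs among all intronless models, the nested model had more counts than its host in at least 1 library in 45, and in every library in 13. Had whole spans been counted with shared reads given to both models, the host could not have had fewer. Of the 108 nested models 75 (69.4%) still met the count rule, although dropping shared reads from whole spans would have left them none.

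Members held 6.27% to 7.0% of all counts in the control libraries (median 6.85%). With cUA they held 6.24% to 8.50% (median 6.77%) and with cGAMP 6.86% to 7.62% (median 7.31%), so the ranges overlapped. The widest 95% Wilson interval of such a share was 0.0219 percentage points, for counting error only. The highest values, 8.50% and 8.28%, were those of cUA 2A and cUA 2C. These also had the lowest TMM composition factors of the cUA libraries, 0.619 and 0.862. Control 1A, with a factor of 0.714, held only 6.83%, so a low factor did not always go with a high share. Much of the share came from few models, since the 10 most abundant members held 37.7% to 52.3% of member counts.

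LOC111323168 (Spis_XP_022782200_1, plus strand of NW_019217829.1, 1017695 to 1018574) was the most abundant member per length, with a mean of 15010 ± 3955 CPM per kb in seawater (SD, n = 6). Its annotated 880 coding bases are not a multiple of 3. Its level was 8255 to 17244 CPM in seawater (median 13522), 9363 to 20433 with cUA (median 10290) and 8566 to 19227 with cGAMP (median 11994). All ranges overlapped, and its log2 fold changes of 0.02 ± 0.30 with cUA and -0.04 ± 0.30 with cGAMP did not pass (edgeR, adjusted p = 0.986 and 0.948). LOC111334052, LOC111333579 and LOC111332175 followed at 3217, 2748 and 2473 CPM per kb in seawater. They did not pass either, with log2 fold changes between -0.14 and 0.55 (edgeR, adjusted p from 0.300 to 0.980). These neighbours in the order overlapped in their control ranges per kb, which were 2623 to 4587 for LOC111334052, 1328 to 6186 for LOC111333579 and 1450 to 3471 for LOC111332175.

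Spis_XP_022800942_1 (plus strand of NW_019218162.1, 106866 to 107639) was the fifth, at 1802 ± 1809 CPM per kb in seawater (SD, n = 6). Its level was 268 to 3753 CPM in seawater (median 768), 1296 to 19097 with cUA (median 3410) and 3813 to 8012 with cGAMP (median 4986). All cGAMP libraries lay above all controls, while the cUA range overlapped them. Its log2 fold change with cGAMP, 1.90 ± 0.66, passed narrowly (edgeR, adjusted p = 0.0463) and that with cUA, 1.99 ± 0.69, did not (edgeR, adjusted p = 0.0754). The cGAMP call was lost without any of 13 single libraries, among them every cGAMP library except cGAMP 2B, and the log2 fold change was 3.10 without control 1A (edgeR, adjusted p = 0.000721; from 8.07e-07 to 0.235 over the alternatives, other tools included).

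**Figure D2:**
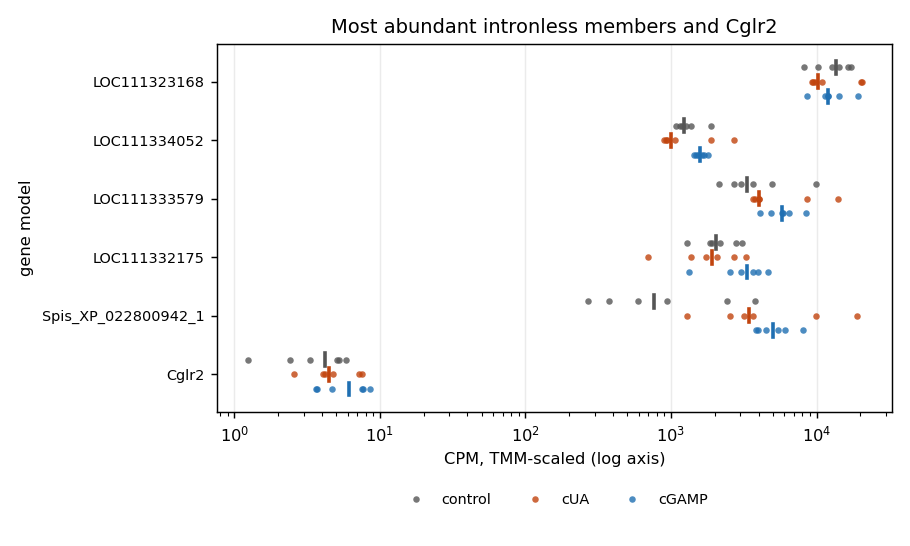
CPM on a log axis in each of the 18 libraries for the 5 members with the highest control level per kb and for Cglr2. Points are libraries and bars are medians of 6. The first 4 overlap between treatments, while Spis_XP_022800942_1 stands at 3813 to 8012 CPM with cGAMP against 268 to 3753 in seawater.

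The model matched to Cglr2 has 1 CDS feature and so is itself a member. Its symbol was matched through another version of the protein accession. The model, Spis_XP_022802921_1, spans 2142 coding bases from 193575 to 195716 on the minus strand of NW_019218231.1. It stood at 1.24 to 5.88 CPM in seawater (median 4.22), at 2.56 to 7.51 with cUA (median 4.48) and at 3.62 to 8.58 with cGAMP (median 6.10), with overlapping ranges and no call (edgeR, adjusted p = 0.578 and 0.280).

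The response was tested with edgeR's quasi-likelihood test over all 18 libraries, with colony and treatment in the model and p-values adjusted by the Benjamini-Hochberg method over the 21375 tested models. Calls required an adjusted p below 0.05. Of the members 2778 passed the filter on low counts and were tested, and 60 were not. For 36 members the count of 10 was reached in control libraries alone and for 2 in cUA libraries alone. Such models entered through the group where they are high. Those tested, 23 from control libraries and 1 from cUA libraries, stay in the counts below and account for 9 of the falls with cUA and 12 with cGAMP. Among spliced models, 120 entered through control libraries alone, with 88 falls with cUA and 99 with cGAMP. Models that reached 10 counts with both compounds but in no control library were not counted apart, and their rises stay in the counts below. At the edge of the count rule, the member Spis_XP_022798045_1 had 67 counts over all libraries and LOC111324832 had 74, while LOC111342122 and LOC111330006, just outside, had 111 each in fewer libraries.

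With 3'3'-cUA, 155 of the 2778 tested members rose (5.58%) and 71 fell (2.56%). Over all tested models the shares were 5.91% and 4.29%. Of the members' calls, 133 rises and 61 falls exceeded 2-fold. Shares over all tested models were not taken at that cutoff, so these counts are not results about the members in particular. The median log2 fold changes of called members were 1.89 and -1.47. Because members stood lower, spliced models were weighted to the members' distribution over 10 bins of mean log2 CPM. At the same expression 5.20% of spliced models rose and 6.22% fell. The share of members that rose was thus 0.38 percentage points above that of spliced models, and the share that fell 3.67 points below.

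The lower share of falls was seen in all 10 bins. In the lower 5 bins 64 of 1991 members fell with cUA (3.21%, against 7.45% of spliced models) and in the upper 5 bins 7 of 787 (0.889%, against 3.12%). Rises in the upper 5 bins were 80 of 787 (10.2%, against 6.88%), and in the lower 5 bins 75 of 1991 (3.77%, against 4.54%). Irrespective of calls, 7.81% of members and 11.7% of spliced models of the same expression had a log2 fold change below -1. The biological coefficient of variation, the spread between libraries of a group beyond counting error, had a median of 0.432 in members. For spliced models, the mean of the bin medians weighted to the members was 0.456, which is not the same statistic. By bin, the members' median was the lower in bins 1 to 6 and 0.315 for both sets in bin 7. In bins 8 to 10 it was the higher (0.361, 0.346 and 0.393, against 0.288, 0.283 and 0.320).

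The difference of -3.67 points in falls with cUA was -2.22 without control 2A, and between -4.41 and -2.22 over the removal of each library. Without the intronless and spliced models that reached 10 counts in a single treatment, a setting added after the data were seen, it was -2.97 (62 members fell). It was -2.65 when bins were set by the control libraries alone, -1.43 from colony 1 alone, and -0.47 from colony 2 alone. The difference in rises lay between 0.11 and 1.36 over the removal of each library, and turned to -1.09 with bins set by control libraries and to -0.46 against models of 2 to 5 CDS features, so no direction is given for it. The count of 71 falls was 143 without control 1A, 42 without control 1B, 46 without control 1C, 43 without control 2A and 47 without cUA 1B, and the count of 155 rises was 237 without control 1A. Of the calls 68.6% were rises, against 57.9% with upper quartile scaling (146 and 106).

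With 2'3'-cGAMP, 222 tested members rose (7.99%) and 313 fell (11.3%). Over all tested models the shares were 9.22% and 12.3%. Of the members' calls, 180 rises and 252 falls exceeded 2-fold, again with no share over all tested models at that cutoff. The median log2 fold changes of called members were 1.69 and -1.57. At the same expression 6.99% of spliced models rose and 16.3% fell, so that the members' share of rises was 1.01 points above and that of falls 5.03 points below. The share of falls was below that of spliced models in the lowest 9 bins and above it in the highest (6.90% against 5.62%).

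In the lower 5 bins 250 of 1991 members fell with cGAMP (12.6%, against 19.1% of spliced models) and in the upper 5 bins 63 of 787 (8.01%, against 9.22%). A log2 fold change below -1 was found in 16.1% of members and 21.7% of spliced models of the same expression. The difference in falls lay between -5.92 and -3.36 points over the removal of each library. Without models that reached 10 counts in a single treatment it was -4.39 (301 members fell). It was -2.88 with bins set by the control libraries alone, -3.55 from colony 1 alone, and -1.10 from colony 2 alone. The difference in rises was 1.95 without control 1A and turned to -0.71 with bins set by the control libraries. Both compounds were compared with the same 6 control libraries, so the cUA and cGAMP values are not separate evidence, and no test was made of the differences between intronless and spliced models.

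**Figure D3:**
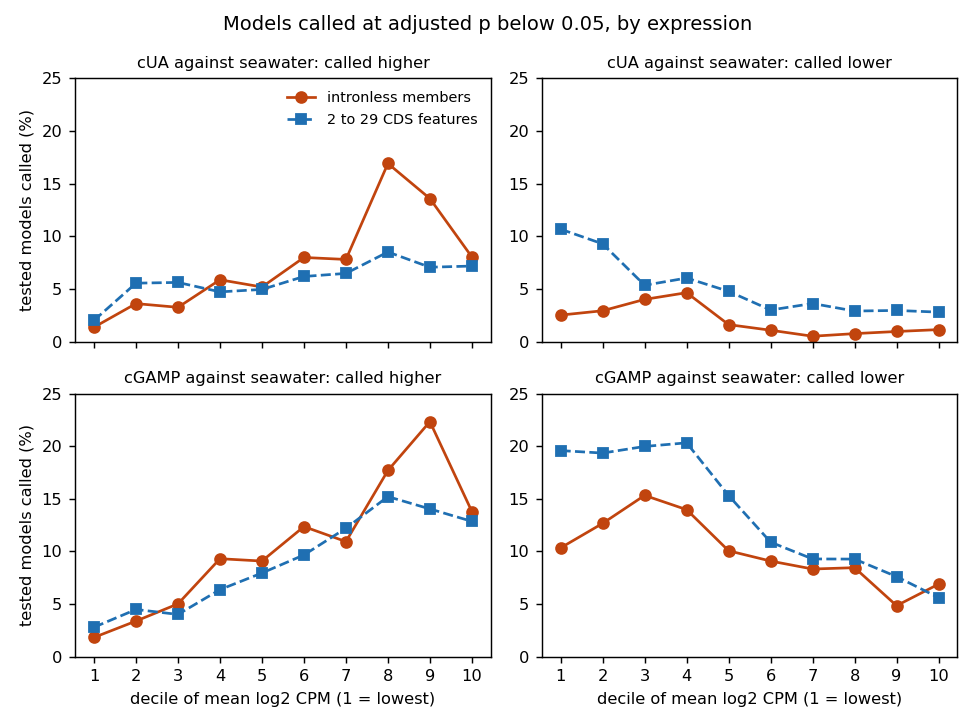
Share of tested models called higher (left) or lower (right) with cUA (top) and cGAMP (bottom), by decile of mean log2 CPM over all libraries, for intronless members (circles) and spliced models (squares). Falls lie below the spliced models in all 10 bins with cUA and in 9 of 10 with cGAMP.

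Each colony was also fitted alone, with 9 libraries. In colony 1, 64 of 2668 tested members rose and 33 fell with cUA, where 2.27% and 2.19% of all models did. With cGAMP 134 rose and 158 fell there, where 5.73% and 7.33% of all models did. In colony 2, 58 of 2535 rose and 5 fell with cUA (all models 1.93% and 0.389%), and 74 rose and 21 fell with cGAMP (2.6% and 1.41%). Calls in single colonies do not show a difference between them. By the interaction of colony and compound in edgeR, 0 members and 0.0% of all models were called. Of the 2778 tested members, 352 had an unadjusted p below 0.05 for cUA and 139 for cGAMP. With no interaction, such values would still come up at a rate of about 0.05. Shares over all models at that cutoff were not taken, so neither count is a result about the members. The unweighted limma-voom fit called 0 too, and without cUA 2B edgeR called 9.

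Among members that rose, those named here are the 6 with the largest log2 fold change for each compound, with a mean of at least 1 CPM, the same sign in both colonies and a matched symbol. LOC111324251 (Spis_XP_022783496_1, plus strand of NW_019217841.1, 566807 to 567592) was at 6.96 to 24.2 CPM in seawater (median 12.9), at 126 to 372 with cUA (median 249) and at 154 to 749 with cGAMP (median 342). Every treated library lay above every control. The log2 fold changes were 4.17 ± 0.40 with cUA (edgeR, adjusted p = 2.88e-06) and 4.78 ± 0.41 with cGAMP (edgeR, adjusted p = 5.05e-07).

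LOC111330496 (Spis_XP_022791098_1, minus strand of NW_019217936.1, 279515 to 280096) went from 2.69 to 6.07 CPM in seawater (median 3.55) to 40.1 to 155 with cUA (median 60.6) and 41.3 to 142 with cGAMP (median 97.2). Its treated libraries also all lay above the controls, and the log2 fold changes were 4.13 ± 0.38 and 4.59 ± 0.38 (edgeR, adjusted p = 2.31e-06 and 4.55e-07). LOC111326328 (Spis_XP_022786035_1, plus strand of NW_019217868.1, 312173 to 313843) stood at 4.05 to 27.9 CPM in seawater (median 6.65), 89.4 to 143 with cUA (median 115) and 94.2 to 395 with cGAMP (median 236). The treated libraries were again all above the controls, of which control 2C was the highest. Its log2 fold changes were 3.67 ± 0.43 and 4.69 ± 0.45 (edgeR, adjusted p = 2.26e-05 and 1.67e-06).

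LOC111333724, LOC111330504 and LOC111324215 rose with both compounds without overlap with the controls. Their log2 fold changes were 3.96, 3.73 and 3.42 with cUA and 4.2, 3.77 and 4.45 with cGAMP (edgeR, adjusted p at most 0.000574). For LOC111324215 the cUA value was 2.66 without cUA 2A, which held its highest level of 471 CPM. LOC111337518 (Spis_XP_022799577_1, plus strand of NW_019218120.1, 45979 to 46914) was low in seawater, at 0.0317 to 1.36 CPM (median 0.459), and stood at 1.79 to 22.6 with cUA (median 5.71) and 2.25 to 53.8 with cGAMP (median 24.0). Its log2 fold changes were 3.76 ± 0.83 and 5.59 ± 0.86 (edgeR, adjusted p = 0.00671 and 0.00017), and that with cUA was 3.07 without cUA 2A.

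LOC111344807 (Spis_XP_022807804_1, minus strand of NW_019218567.1, 74254 to 75426) had the largest fitted change, but rests on few counts. It had 2 counts in the control libraries together, 266 with cUA and 121 with cGAMP, which are ratios of 156 and 89.8 after scaling for depth. cUA 2A held 223 of the 266 counts and cUA 1A none. No control library held more than 1 count, so LOC111344807 entered the set through treated libraries alone. The log2 fold change with cUA was 6.81 ± 1.69 (edgeR, adjusted p = 0.0145), with 4.29 without cUA 2A and 7.40 without control 1B. With cGAMP it was 6.16 ± 1.66 (edgeR, adjusted p = 0.0126), with 6.83 and 6.78 without control 1B and 1C. The cUA call was lost with limma-voom, with and without sample weights, and both calls were lost in each colony alone.

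Among members that fell, chosen by the same rule, LOC111320670 (Spis_XP_022779066_1, minus strand of NW_019217804.1, 674526 to 676058) went from 1.39 to 11.1 CPM in seawater (median 3.18) to 0.115 to 0.436 with cUA (median 0.234) and 0.0991 to 0.322 with cGAMP (median 0.262). No treated library reached the lowest control. The log2 fold changes were -4.04 ± 0.52 and -4.13 ± 0.53 (edgeR, adjusted p = 5.93e-05 and 2.76e-05).

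LOC111329177 (Spis_XP_022789521_1, plus strand of NW_019217912.1, 531440 to 533446) was at 5.27 to 14.7 CPM in seawater (median 12.0), 0.689 to 1.69 with cUA (median 1.08) and 0.591 to 3.07 with cGAMP (median 1.18). Its treated libraries all lay below the controls, and the log2 fold changes were -3.30 ± 0.41 and -2.90 ± 0.40 (edgeR, adjusted p = 4.11e-05 and 6.84e-05). LOC111329699 (Spis_XP_022790199_1, minus strand of NW_019217922.1, 372287 to 373429) was the most abundant of the named members that fell, at 25.6 to 111 CPM in seawater (median 63.6), 2.78 to 19.7 with cUA (median 9.98) and 1.73 to 14.2 with cGAMP (median 8.07). The treated libraries were all below the controls, with log2 fold changes of -2.68 ± 0.49 and -3.15 ± 0.50 (edgeR, adjusted p = 0.0016 and 0.000252).

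LOC111325033, LOC111341030 and LOC111321211 fell with both compounds, with log2 fold changes of -2.64, -2.44 and -2.19 with cUA and -4.06, -2.60 and -2.09 with cGAMP (edgeR, adjusted p at most 0.00773). Their cUA ranges overlapped the controls, and so did the cGAMP ranges of LOC111341030 and LOC111321211. Control 2A held the highest level of LOC111341030, 47.0 CPM, and without it the log2 fold changes were -1.77 and -1.97. LOC111322638 overlaps another model in span. It fell with cGAMP by a log2 fold change of -3.84 and with cUA by -2.09 (edgeR, adjusted p = 0.000159 and 0.0158), and its cUA range overlapped the controls.

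LOC111325324 and LOC111341733 fell with cGAMP, at log2 fold changes of -3.83 and -3.58 (edgeR, adjusted p = 0.00156 and 0.000621), although control 1A, alone among the controls, lay within the cGAMP range of each, at 0.359 and 0.319 CPM. With cUA their values were -1.31 and -1.55 and did not pass (edgeR, adjusted p = 0.258 and 0.0883). LOC111330408 (Spis_XP_022790998_1, plus strand of NW_019217790.1, 385205 to 386011) was at 2.53 to 6.08 CPM in seawater (median 4.33), 0.861 to 2.19 with cUA (median 1.20) and 0.211 to 0.603 with cGAMP (median 0.421). Its 3 treatments did not overlap, with log2 fold changes of -1.66 ± 0.31 and -3.42 ± 0.34 (edgeR, adjusted p = 0.00162 and 1.97e-06).

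**Figure D4:**
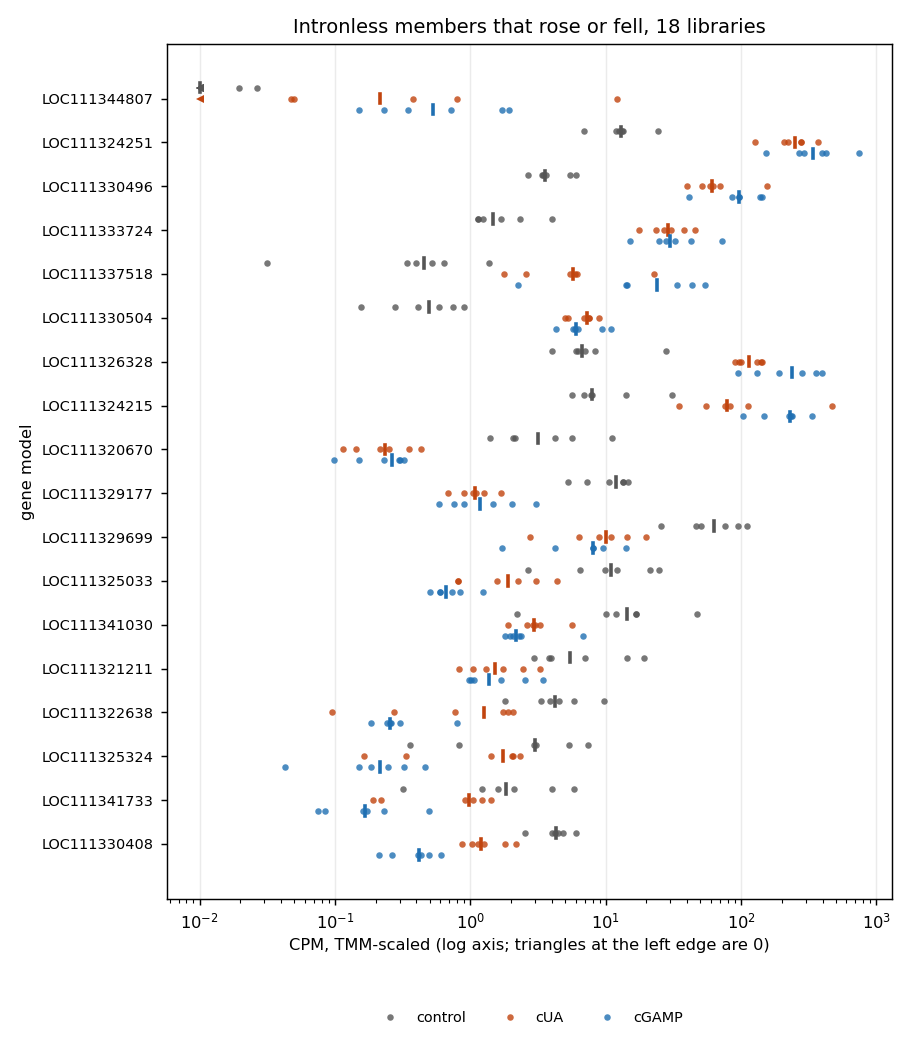
CPM on a log axis in each of the 18 libraries for the 18 intronless members named for a called change (the 6 largest rises and the 6 largest falls per compound among members with a mean of at least 1 CPM, the same sign in both colonies and a symbol), those that rose first. Points are libraries and bars are medians of 6 libraries; triangles mark 0. For LOC111324251 all treated libraries stand at 126 CPM or more against at most 24.2 in seawater.

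The compounds were compared directly at 250 µM and 18 h. They differ in their bases, uracil and adenine in cUA against guanine and adenine in cGAMP, and in the linkage between the nucleotides. By edgeR 0 of the 2778 members differed between them, as 0.0% of all tested models did, with 201 members at an unadjusted p below 0.05, of which 158 were higher with cUA and 43 lower. The lowest adjusted p among the members was that of LOC111330408, with a log2 difference of 1.76 ± 0.33 (edgeR, adjusted p = 0.132). DESeq2 called 15 members, limma-voom 367 with sample weights and 0 without. Leaving out cUA 2A gave 3 calls, leaving out control 1A gave 1, and leaving out both gave 98. Shares over all tested models were not taken for these fits or for the unadjusted cutoff. These counts are therefore not results about the members in particular. The members' median log2 difference was 0.09 (quartiles -0.18 and 0.41), against 0.05 over all tested models. A missing call does not show that the compounds act alike.

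The shares of called members were also set out by coding length and position, with no test and no matching for expression, beside 5.91% and 9.22% of all tested models that rose and 12.3% that fell with cGAMP. Split into 4 classes of coding length, members of the longest class (1371 bases or more) rose in 8.63% of cases with cUA and 12.4% with cGAMP, where the other classes had 3.76% to 5.01% and 5.92% to 7.58%. Falls with cGAMP ranged from 8.92% in the longest class to 13.9% in the next longest (1008 to 1368 bases). The shortest class (774 bases or less) stood highest in seawater, at a median of 6.31 CPM per kb against 1.81 to 1.98 in the others. Among 330 tested members in runs of 3 or more neighbours, 8.79% rose with cUA and 10.9% with cGAMP, against 5.08% and 7.38% of 1869 members with no adjacent member. The run of 7 and 1 run of 6 described next held 12 of the 29 rises with cUA and 12 of the 36 with cGAMP. Without them the shares were 5.36% and 7.57% of 317 members. This setting was added after the data were seen. The other run of 6, with 0 rises, was kept, so the lower shares follow from the choice of runs. Neighbours can share a source, so these shares do not count independent cases.

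The run of 7 adjacent members was chosen by position alone. It lies on NW_019217841.1 from 562555 to 611915, with 3 models on the plus strand, and 6 of the 7 rose with cUA and with cGAMP. LOC111324243, at the start of the run, was the exception, with 2.15 to 11.8 CPM in seawater, 1.14 to 11.4 with cUA and 3.74 to 8.74 with cGAMP and no call (edgeR, adjusted p = 0.841 and 0.608). Its neighbour LOC111324250, after a gap of 1243 bases, rose by log2 fold changes of 1.53 and 2.06 (edgeR, adjusted p = 0.0206 and 0.00123). LOC111324251, described above, follows. A gap of 28579 bases then leads to LOC111324213, which rose by 1.99 and 2.04 (edgeR, adjusted p = 0.032 and 0.0117) with its highest cUA level, 189 CPM, in cUA 2A.

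LOC111324215 is next, and LOC111324216 rose from 0.852 to 6.43 CPM in seawater to 6.91 to 25.3 with cUA and 8.20 to 25.1 with cGAMP. Spis_XP_022783444_1, at the end, went from 0.186 to 0.718 CPM to 2.24 to 7.62 with cUA and 4.62 to 9.09 with cGAMP, with log2 fold changes of 3.25 ± 0.37 and 3.83 ± 0.37 (edgeR, adjusted p = 1.58e-05 and 1.96e-06). The control and treated ranges of LOC111324215, LOC111324216 and Spis_XP_022783444_1 did not overlap. Those of LOC111324250 did with both compounds, where the highest control was 4.66 CPM and the lowest treated libraries 3.51 with cUA and 4.58 with cGAMP. Those of LOC111324213 overlapped with cUA, at a highest control of 18.6 CPM and a lowest cUA library of 15.6. Over the alternatives 4 to 6 of the 7 were called with cUA (4 without control 2B) and 5 or 6 with cGAMP.

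**Figure D5:**
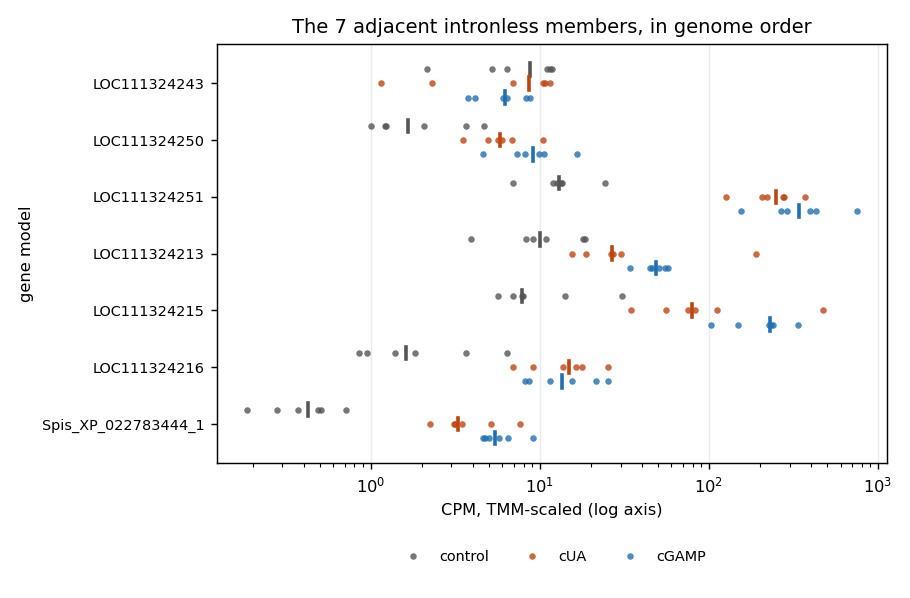
CPM on a log axis in each of the 18 libraries for the 7 adjacent intronless members on NW_019217841.1, in genome order from top to bottom. Points are libraries and bars are medians of 6. LOC111324243 overlaps between treatments, and Spis_XP_022783444_1 stands at 0.186 to 0.718 CPM in seawater against at least 2.24 in every treated library.

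In a run of 6 on NW_019217936.1, from 275603 to 291986, all 6 members rose with each compound. They are short, with 519 to 585 coding bases, and stood at 0.513 to 47.4 CPM in seawater on average. Their log2 fold changes were 1.99 or more with cUA, up to 4.13, and 2.08 to 4.59 with cGAMP (edgeR, adjusted p at most 0.00046). The other run of 6, on NW_019218411.1, had 0 rises with either compound, with 1 fall with cUA and 3 with cGAMP, and the 4 runs of 5 had between them 1 rise, with cUA, and 4 falls, with cGAMP. Over all 39 members in these 7 runs, 38 tested, the median log2 fold change was 0.20 with cUA and -0.11 with cGAMP.

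Members nested in another model were compared with their hosts, since reads may pass between them. On the same strand, 70 pairs had both models tested. Pearson's r between the log2 fold changes of member and host across these pairs was 0.50 with cUA (Spearman's rho 0.40) and 0.52 with cGAMP (rho 0.34). On opposite strands, over 82 pairs, r was 0.51 with cUA (rho 0.45) and 0.46 with cGAMP (rho 0.29). The pairs share their libraries and may share reads, so these are descriptions. Calls among the 159 tested nested members were 10 rises and 2 falls with cUA and 11 and 22 with cGAMP. These are shares of 6.29%, 1.26%, 6.92% and 13.8%, beside 5.91%, 4.29%, 9.22% and 12.3% of all tested models. Without the members that overlap another span, the shares were 5.52% and 2.64% with cUA and 8.05% and 11.1% with cGAMP.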

How the data were processed

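RNA of 18 specimens of adult colonies was analysed. The authors deposited a table of raw counts, with library totals of 22175801 to 41800393, and an annotation whose positions are used as given. The submitters' processing notes name STAR, featureCounts and DESeq2. Their versions and settings, strand use, the genome build and the handling of multiply matching reads are in no label or header used here. The kit marks strand, per the labels' protocols.

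Models were taken by the rule in the text. The 21375 models passing filterByExpr were fitted with edgeR 4.0.16 in R 4.3.3 (TMM, robust quasi-likelihood, colony plus treatment, 14 residual degrees of freedom; 12 with the interaction). The standard error is the log2 fold change divided by the square root of F. CPM is TMM-scaled, and log2 CPM used a prior count of 2. The precision of a level depends on its count. Libraries of a group differed by at least 19.9 in chi-square per degree of freedom, so none duplicated another of its group. Only pairs within a group were compared in this way. The value of 19.9 was that of control 1B and 1C, while control 1A differed from them by 495 and 575, the highest values. The fit was tested on simulated data. Alternatives were limma 3.58.1, DESeq2 1.42.0, other scalings, filters, member rules and bins, a specimen-number block and left-out libraries.

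The members and the rules were chosen with earlier results of these data known. Named members were, per compound, the 6 that rose and the 6 that fell most (mean of at least 1 CPM, same sign in both colonies, a symbol), the 5 most abundant per kb, Cglr2 and the lowest p between the compounds; a part of the rule on similar proteins was not applied, as no protein sequences were used here. A reference table of another assembly gave symbols alone.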

Additional observations from a re-analysis of the deposited data

Results flagged for a closer look

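Within each treatment's 6 libraries, the library farthest from the rest was compared with the spread of log2 CPM for the named members, the run of 7 and the share of counts, 90 groups in all. Chance marks about 1 group in 20, and 4 stood apart. LOC111341030 was at 6.84 CPM in cGAMP 1A, against 1.82 to 2.37 in the other cGAMP libraries. LOC111326328 was at 27.9 CPM in control 2C, against 4.05 to 8.35 in the other controls. LOC111322638 was at 0.793 CPM in cGAMP 1A (16 counts), against 0.183 to 0.301. LOC111324213, in the run of 7, was at 189 CPM in cUA 2A, against 15.6 to 30.1 in the other cUA libraries.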

How the results depend on the processing

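Of the 35 calls of named members, 19 held in all alternative fits that gave a value (up to 31), 14 were lost only in a fit of a single colony, and 0 changed sign. The others were that of LOC111344807 with cUA, lost with limma-voom and in each colony alone, and that of Spis_XP_022800942_1 with cGAMP. Named rises and falls had been selected for the same sign in both colonies. For the selecting compound, the single-colony fits therefore could not change the sign. The members' counts of rises and falls were 155 and 71 with cUA and 222 and 313 with cGAMP. They were 301 and 452, and 522 and 802, by limma-voom with sample weights; 64 and 33, and 134 and 158, in colony 1 alone; 58 and 5, and 74 and 21, in colony 2 alone. Without control 1A and cUA 2A, 126 fell with cUA, 380 rose and 484 fell with cGAMP, and 98 differed between the compounds. DESeq2 called 156 as lower with cUA and 15 between the compounds, where sample weights gave 367. Without single libraries the cUA counts were 116 to 237 and 42 to 143, the cGAMP counts 184 to 323 and 215 to 416, the direct count 0 to 3 and the interaction count 0 to 9. Shares over all tested models are given only for the main fit and the single colonies. The counts of the other fits are therefore not results about the members in particular.

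The log2 ratio of levels, -1.93, was -1.68 with 10 counts required in 9 libraries and -1.31 against models of 2 to 5 CDS features; without single control libraries it was -1.97 to -1.91. The share of members called in either direction, less that of spliced models of the same expression, was -3.29 points with cUA and -4.03 with cGAMP. For cUA it was -1.23 with the stricter filter, -1.96 without control 1A and cUA 2A, -1.75 with sample weights, -0.65 and 0.47 in colonies 1 and 2 alone and -2.05 with the stricter member rule. For cGAMP it was -2.38 with the stricter filter and 0.0132 in colony 2 alone. Without single libraries it was -3.83 to -1.16 and -4.61 to -2.11; control 1B (-1.54), 2A (-1.16), 2B (-2.07) and 2C (-2.11) and cUA 2A (-1.87) moved the cUA value most, and control 2A (-2.11) that for cGAMP. The cause of these shifts was not tested; fits of single colonies hold fewer libraries.

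Among pairs of libraries with the same specimen number, 6 of 18 had deviations correlated over 0.1 (range -0.45 to 0.38). A library correlated best with its own number in 16 of 36 comparisons. With 3 libraries per group some such matches arise without pairing, so whether specimen numbers pair the libraries cannot be settled from these values. With a replicate block the counts were 131 and 56 with cUA and 215 and 251 with cGAMP, and the cUA share difference -1.71. Scaling by total counts moved the cGAMP median over all models from -0.07 to -0.24 (log2), and the members' median from -0.15 to -0.31. Depth limits the low members most: 57.6% of members, against 76.5% of spliced models, had 10 counts in all 18 libraries.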
